A study of Rattus norvegicus with 6 samples.

Results

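The C60 effect is the log2 difference between lungs of rats that inhaled C60 fullerene, a cage-shaped carbon molecule, and lungs of rats that inhaled clean air. Its change over time was measured for every gene as the C60 effect 1 month after exposure minus the C60 effect 3 days after exposure. A positive value means that the C60 effect was higher at 1 month. The calculation used 4 of the 6 samples of the series and 13 of its 23 arrays, and 24799 genes were tested, of which 13167 carried a gene symbol and 11632 only a probe identifier. Male Wistar rats, 9 weeks old at the start and 5 per group and time point, breathed the aerosol or clean air in whole-body chambers for 6 h a day, 5 days a week, over 4 weeks. After saline perfusion, total RNA from whole right lungs was hybridised to 1-colour oligonucleotide arrays.

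The 4 groups shared strain, sex, age at the start and chamber regime, and differed in the aerosol and in the time after exposure. The C60 group at 1 month, dissected 33 days after exposure, gave 4 arrays, and the control group at 1 month gave 4 arrays. The C60 group at 3 days entered with array positions 1 and 2 of its slide, since its label states n = 2 while 4 arrays came with it. The control group at 3 days gave 3 arrays. The other 2 samples were rats exposed to nickel oxide, a positive control, at both times; they entered only the shared estimate of the spread. Each slide held 1 group, and all arrays of 1 time were scanned on the same day, so slide cannot be told apart from group, nor scan day from time. The labels' n values imply 1 rat per array but do not state it, so the p-values describe array-to-array spread only.

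Inhaled particles that dissolve poorly are taken up by alveolar macrophages and carried out of the lung along the airways and lymph, and a response to them can fade, persist or appear late. A difference of differences asks whether the response changed between the times, because a change that both exposed and control lungs undergo drops out of it. Whether a response faded, persisted or appeared late is read from the C60 effect at each time, not from this difference alone. The same construction means that it equals the change between times on the C60 slides minus the change between times on the control slides, so any single slide can produce it.

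Lung markers checked the tissue. The surfactant genes Sftpc, Sftpb and Sftpa1, the club cell gene Scgb1a1, the alveolar type I gene Ager and the endothelial gene Pecam1 were well above background on all 13 arrays, whereas the macrophage gene Marco was so on 2. The heart muscle genes Myh6, Tnnt2 and Tnni3, the fat cell gene Adipoq and the red cell genes Alas2 and Hbb were also well above background on all 13. The share of spots well above background ranged from 57.4% to 78.3% over the 13 arrays. The mean net signal of the negative control spots was 143.7 and 66.5 on the 2 C60 arrays used at 3 days, and between 24.7 and 39.4 on the others of the 13. The 2 unused arrays of that C60 slide had 41.5 and 34.0. Spots well above background made up 78.1% and 76.5% on those unused arrays, against 57.4% and 60.7% on the 2 used. Correlations between arrays of 1 group lay between 0.989 and 0.992 for C60 at 1 month, 0.962 and 0.990 for control at 1 month and 0.989 and 0.991 for control at 3 days, and the pair of C60 arrays at 3 days correlated at 0.985.

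The C60 effect differed between the times for 2563 genes, 10.3% of those tested, by limma with Benjamini-Hochberg adjusted p under 0.05. It was higher at 1 month for 1037 genes (4.18%) and lower for 1526 (6.15%). Differences of at least 1 log2 unit were counted for 302 genes in the higher and 1139 in the lower direction. The unadjusted p was under 0.05 for 7019 genes. The direction depended on the scaling: quantile normalization gave 1320 higher and 1226 lower, and normexp background correction gave 713 higher and 736 lower. The median difference over all genes was -0.06 log2 units after scaling by the 75th percentile and 0.06 after quantile normalization. A smaller set of 743 genes (3.0%) was called with all arrays and also without each of the 13 arrays in turn, 168 higher and 575 lower. Leaving out 1 of the 2 C60 arrays at 3 days left 1238 calls without array 1 and 1199 without array 2, and leaving out control array 3 at 3 days left 1699. An alternative added once values were known, positions 3 and 4 in place of positions 1 and 2 of the C60 slide at 3 days, called 6856 genes; of the 2563 genes, 2120 were called in the same direction there and 2536 had the same sign.

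The control slides carried more of these differences than the C60 slides. A slide was said to carry a gene's difference where its mean lay beyond the other 3 means by more than those 3 spanned. By that rule 1108 of the 2563 genes (43.2%) were carried by a control slide, 386 (15.1%) by a C60 slide and 1069 (41.7%) by no single slide. Over all 24799 genes the shares were 30.1% for the control slides and 17.4% for the C60 slides. The largest class was 547 genes (21.3%, against 6.5% of all genes) low on the control slide at 3 days. That slide was high for 171 (6.67%, against 3.99%). The control slide at 1 month was high for 245 (9.56%, against 12.4%) and low for 145 (5.66%, against 7.15%). The C60 slide at 3 days was low for 212 (8.27%, against 6.65%) and high for 45 (1.76%, against 1.98%). The C60 slide at 1 month was low for 94 (3.67%, against 5.92%) and high for 35 (1.37%, against 2.85%). Only the control slide at 3 days thus lay above the shares of all genes in both directions. Both slides at 1 month lay below them. Of the 743 genes that held without each array, 55.7% were carried by a control slide and 9.29% by a C60 slide. The nickel oxide slides were then set beside these. On the control slide at 3 days 189 called genes (7.37%) lay at least 1 log2 unit below all 5 other slides, against 0.984% of all genes. On the control slide at 1 month 111 (4.33%) lay that much above them, against 1.39%. For the C60 slide at 3 days the counts were 13 high and 13 low (0.507% each), against 0.105% and 0.278%. For the C60 slide at 1 month 5 were low (0.195%), against 0.0927%. Of the 1937 called genes well above background on all 13 arrays, 93 (4.8%) were so low on the control slide at 3 days, against 0.984% of all genes. On the control slide at 1 month 20 of them (1.03%) were so high, below the 1.39% of all genes. On the C60 slide at 3 days 5 were high (0.258%) and 1 low (0.0516%), against 0.105% and 0.278%. The shares of all genes include genes not well above background on every array.

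**Figure D1:**
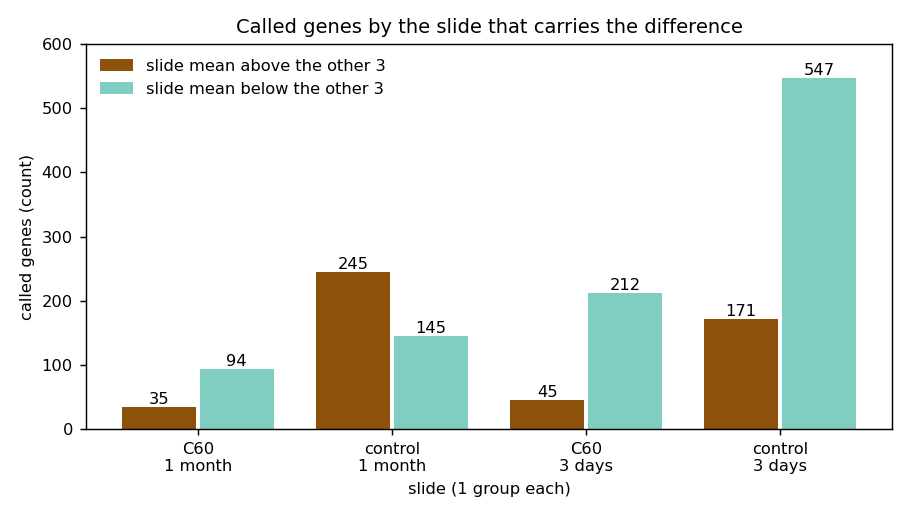
Number of the 2563 called genes carried by each of the 4 slides, with bars for a slide mean above the other 3 and for a slide mean below them; the 1069 genes carried by no single slide are not drawn. The tallest bar is the control slide at 3 days, low for 547 genes.

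Seen as changes between times, the same genes moved mostly on the control slides. The C60 slides differed between 1 month and 3 days for 5875 genes (23.7%; 14.4% higher and 9.27% lower), and the control slides for 11403 genes (46.0%; 27.7% higher and 18.3% lower). Of the 2563 genes, 32.7% were also called for C60 at 1 month against C60 at 3 days, and 78.5% for control at 1 month against control at 3 days. The control change was the larger in size for 71.6% of them, against 59.9% of all genes. These comparisons share arrays with the difference of differences and are given side by side, not as support. The C60 comparison sets 4 arrays against 2 and the control comparison 4 against 3, so their counts of calls differ in precision. With all 4 C60 arrays at 3 days, 8221 genes were called for C60 between times.

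**Figure D2:**
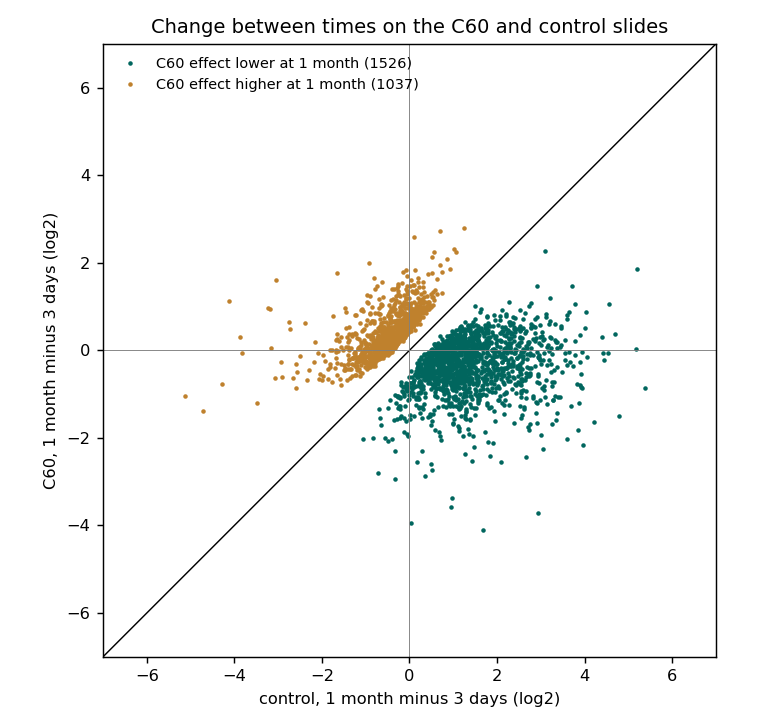
Each point is 1 of the 2563 called genes, with the log2 change of the C60 slides (1 month minus 3 days) on the y axis and that of the control slides on the x axis; on the diagonal the C60 effect is equal at both times. Genes called lower (1526) lie below the diagonal and genes called higher (1037) above it, and 71.6% of the points have the larger change on the control slides.

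Split by the comparison at each time, 1135 of the 2563 genes (44.3%) were called for C60 against control at 1 month and not at 3 days, 461 with a higher and 674 with a lower C60 effect at 1 month. Another 610 (23.8%) were called at 3 days and not at 1 month. In 281 genes (11%) both comparisons were called with opposite signs, 243 of them lower at 1 month, in 9 genes both were called with the same sign, and in 528 (20.6%) neither was called. Over all genes, C60 differed from control for 4878 (19.7%; 7.27% higher and 12.4% lower) at 1 month and for 1225 (4.94%; 2.96% higher and 1.98% lower) at 3 days. The arrays of C60 and control did not overlap for 27.7% of all genes at 1 month and for 45.0% at 3 days, where 2 arrays stand against 3.

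The largest rises of the C60 effect that held without every single array, among genes well above background on all 13, were Dsg2, Frem2, Tmem8b, Abra, Lhx3, Gtpbp1, Edn3, Ptp4a3, Prss16 and Osr1. For 8 of the 10 the control slide at 3 days was the high one. Levels are log2 signals relative to the 75th percentile of the array, and levels of different probes are not comparable. Dsg2, a desmosomal cadherin that holds epithelial and heart muscle cells together, read -4.63, -4.94, -4.88 and -4.41 in C60 lungs and -4.15, -3.74, -4.04 and -4.41 in control lungs at 1 month, and -3.91 and -4.00 in C60 lungs against 0.40, 0.10 and 0.09 in control lungs at 3 days. The 3 control arrays at 3 days thus stood far above the other 10, and the nickel oxide slides averaged -4.80 at 1 month and -3.38 at 3 days. The C60 effect on Dsg2 was -0.63 at 1 month (limma adjusted p = 0.0103) and -4.15 at 3 days (adjusted p = 6.34e-10), a difference of 3.52 ± 0.25 (SE; adjusted p = 7.48e-08). Its probe, like the others printed here, is a 60-base oligonucleotide whose letters come from the deposited scanner files, with G and C in capitals; positions are those of the array's grid on build rn4.

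Dsg2, chr18:12364344-12364403, + strand: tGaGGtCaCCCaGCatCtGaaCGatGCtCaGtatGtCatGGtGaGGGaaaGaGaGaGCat
Lhx3, chr3:4385005-4387264, - strand: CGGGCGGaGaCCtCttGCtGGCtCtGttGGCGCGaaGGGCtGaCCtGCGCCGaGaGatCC

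Lhx3, a LIM homeodomain factor of pituitary and motor neuron development, had the probe richest in G and C of the named rises (68.3%, against 50% for Dsg2). Its grid coordinates reach over more than its 60 bases, and no annotation of that build was used here. Lhx3 averaged -1.10 in C60 and -1.48 in control lungs at 1 month, and -1.34 in C60 and 0.20 in control lungs at 3 days (difference 1.93 ± 0.31 SE, adjusted p = 0.000906). Frem2, a basement membrane protein of embryonic epithelia, averaged -2.85 in C60 and -2.90 in control lungs at 1 month, and -2.22 in C60 and 0.19 in control lungs at 3 days (difference 2.45 ± 0.24, adjusted p = 4.10e-06). In Frem2, Gtpbp1, Prss16 and Osr1 the arrays of C60 and control overlapped at 1 month and did not at 3 days, and the comparison at 1 month was not called. Their differences were 2.45, 1.85, 1.68 and 1.63. Abra, an actin-binding protein of striated muscle, followed the same pattern with a difference of 2.05. It averaged -1.91 in C60 and -2.07 in control lungs at 1 month, and -2.72 in C60 and -0.83 in control lungs at 3 days.

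Edn3 and Ptp4a3 departed from that pattern. Edn3, which encodes the vasoactive peptide endothelin 3, read -1.48, -1.50, -1.14 and -1.24 in C60 lungs and -1.92, -2.16, -1.88 and -2.31 in control lungs at 1 month, and -2.60 and -3.02 in C60 lungs against -1.23, -2.40 and -1.83 in control lungs at 3 days. C60 lungs were the higher at 1 month and the lower at 3 days, with no overlap at either time, and the C60 slide at 3 days carried the difference of 1.72 ± 0.32 (adjusted p = 0.00258). The 2 unused C60 arrays at 3 days read -2.84 and -2.77, also below all 3 controls. Ptp4a3, a protein tyrosine phosphatase, was carried by no single slide. It averaged 1.92 in C60 and 1.09 in control lungs at 1 month, and 2.17 in C60 and 3.02 in control lungs at 3 days (difference 1.68 ± 0.36, adjusted p = 0.00802).

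The largest falls by the same rule were Ergic2, Celsr1, Or5w22, Hspa8-ps5, Rpl13a-ps12, Ncl-ps1, Rps2-ps17, Dhx16, Cdk11b and Acot1. Ergic2, a protein of the compartment between endoplasmic reticulum and Golgi, read -1.56, -1.51, -1.80 and -1.88 in C60 lungs and -0.16, -0.14, -0.26 and -0.26 in control lungs at 1 month, and -1.17 and -1.15 in C60 lungs against -3.12, -2.87 and -2.73 in control lungs at 3 days. C60 lungs were below control lungs at 1 month and above them at 3 days, with no overlap, and the control slides lay outermost on both sides. The C60 effect was -1.48 at 1 month and 1.75 at 3 days, a difference of -3.23 ± 0.20 (SE; limma adjusted p = 3.25e-08). Only 23.3% of the bases of the Ergic2 probe are G or C. Dhx16, a helicase of pre-mRNA splicing whose probe holds 20% G and C, averaged -1.03 in C60 and 0.13 in control lungs at 1 month, and 0.36 in C60 and -1.16 in control lungs at 3 days (difference -2.68 ± 0.32, adjusted p = 3.29e-05).

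Celsr1, a cadherin of planar cell polarity in airway and other epithelia, was carried by the control slide at 3 days alone. Its brighter probe averaged -0.13 in C60 and 0.10 in control lungs at 1 month, and 0.04 in C60 and -2.86 in control lungs at 3 days, a difference of -3.13 ± 0.26 (adjusted p = 5.66e-07). The nickel oxide slides averaged -0.44 at 1 month and -0.33 at 3 days, so the other 5 slides lay between -0.44 and 0.10. A second probe of Celsr1 gave 0.91 ± 0.71 (adjusted p = 0.414), the opposite sign without a call. The 2 probes lie on the same strand and are printed to show that they hold different stretches of the gene.

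Celsr1, brighter probe, chr7:124033123-124033182, - strand: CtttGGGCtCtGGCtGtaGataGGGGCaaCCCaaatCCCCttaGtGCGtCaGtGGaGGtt
Celsr1, second probe, chr7:123902722-123902781, - strand: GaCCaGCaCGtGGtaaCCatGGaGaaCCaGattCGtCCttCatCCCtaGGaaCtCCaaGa

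Acot1 was the named fall carried by a C60 slide. It encodes the cytosolic acyl-CoA thioesterase that splits fatty acyl-CoA and is a known target of the lipid sensor PPARA. Acot1 read -1.52, -2.02, -1.69 and -0.45 in C60 lungs and -1.37, -1.91, -1.10 and -0.29 in control lungs at 1 month, and 1.43 and 1.60 in C60 lungs against -1.29, -0.62 and -0.59 in control lungs at 3 days. The groups overlapped throughout at 1 month, and both C60 arrays at 3 days stood above every other array. The C60 effect was -0.25 at 1 month (adjusted p = 0.606) and 2.35 at 3 days (adjusted p = 0.00359), a difference of -2.60 ± 0.56 (adjusted p = 0.00753). The 2 unused C60 arrays at 3 days read 1.60 and 1.38.

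Of the 10 falls, 4 carry the symbols of pseudogenes, and their probes may also bind RNA of the parent gene or of other copies, so the source of their signal is uncertain. Ncl-ps1, a copy of the nucleolin gene, averaged -3.64 in C60 and -2.39 in control lungs at 1 month, and -2.50 in C60 and -3.98 in control lungs at 3 days (difference -2.73 ± 0.30, adjusted p = 1.39e-05). Hspa8-ps5, a copy of the heat shock cognate gene Hspa8, gave -2.82 ± 0.37 (adjusted p = 0.000108), while the probe used for Hspa8 itself gave 0.95 ± 0.19 (adjusted p = 0.00468). These 2 probes gave opposite signs, and another Hspa8 probe had the sign of the copy's probe (-0.33, adjusted p = 0.504).

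Hspa8-ps5, chr17:75127979-75128038, + strand: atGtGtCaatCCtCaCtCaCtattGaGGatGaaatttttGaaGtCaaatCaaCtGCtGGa

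The plot of 8 genes by array shows these patterns beside each other.

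**Figure D3:**
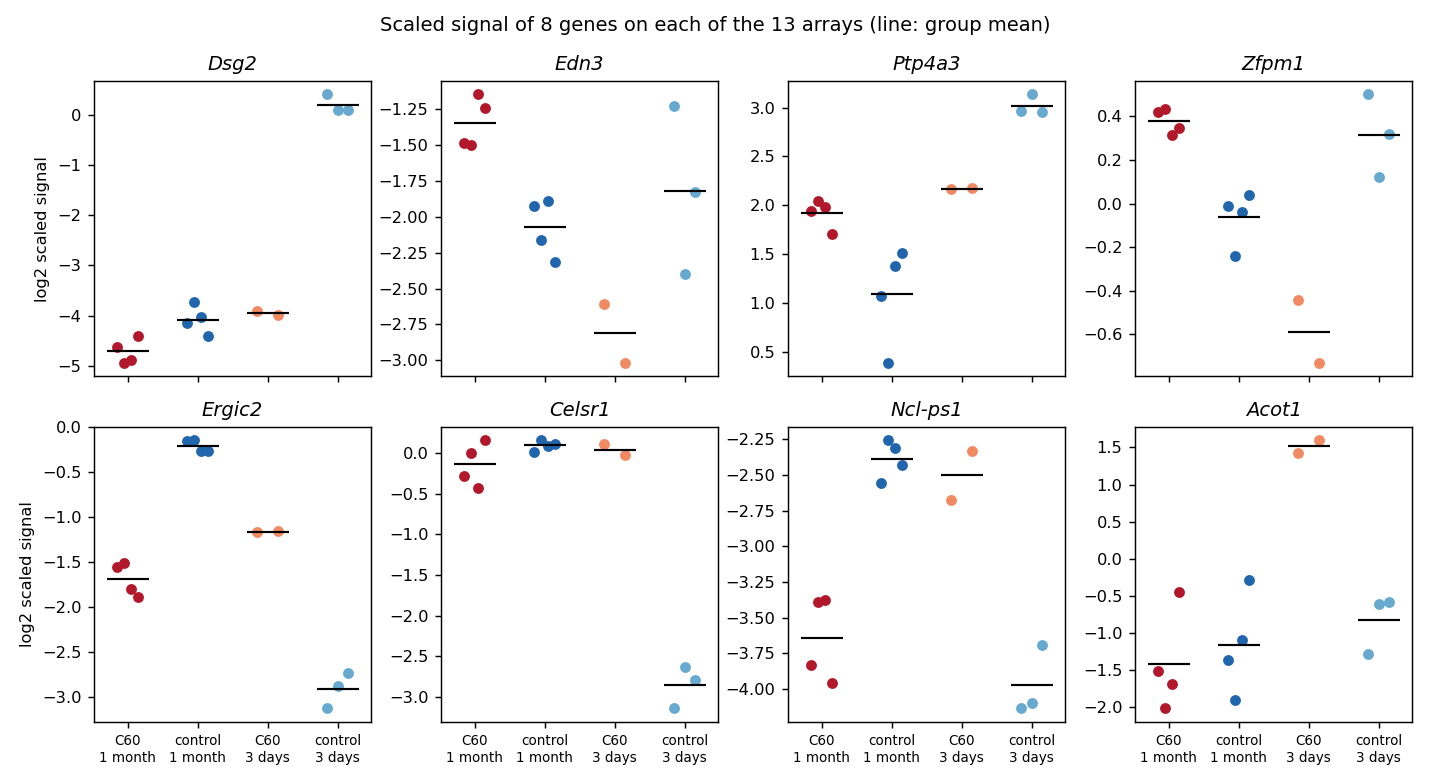
Log2 signal relative to the array's 75th percentile for 8 genes on each of the 13 arrays; points are arrays, lines group means, and each panel has its own y axis. Dsg2 is high and Celsr1 low on the control slide at 3 days only, Acot1 is high on the C60 slide at 3 days, and in Edn3, Zfpm1, Ergic2 and Ncl-ps1 the C60 effect has opposite signs at the 2 times.

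Where a group had no array on which a probe was well above background, the difference is a bound. For that group each array counted with whichever was higher, the probe's measured level or the dimmest level that any probe well above background had there. Ntm, the neural adhesion molecule neurotrimin, and Spry4, a Sprouty protein that dampens growth factor signalling, were well above background on all 4 arrays of each group at 1 month and all 3 control arrays at 3 days, and on neither C60 array at 3 days. Ntm averaged -4.25 in C60 and -3.94 in control lungs at 1 month and -1.19 in control lungs at 3 days, and its difference was 2.82 or higher (fitted 3.39, limma adjusted p = 0.000106). Spry4 gave 2.33 or higher (fitted 3.21, adjusted p = 0.000327). Rnf151 gave 1.36 or higher and Med22, a Mediator subunit, 1.59 or higher. The limma adjusted p of Med22, 0.0377, was above 0.05 in 8 of the 13 fits with an array left out, with fitted differences of 1.32 to 2. Med22 read -4.34 and -4.04 on the used C60 arrays at 3 days, and -3.29 and -3.34 on the unused ones. The unused arrays lay within the range of the 3 control arrays at 3 days (-3.84, -2.49 and -3.21), so the bound of Med22 holds for positions 1 and 2 only.

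In the other direction, Set-ps11, a copy of the Set gene, gave -4.29 or lower (at least 19.5-fold lower; fitted -6.23, adjusted p = 9.34e-09). It averaged -3.40 in C60 and -1.61 in control lungs at 1 month and -2.54 in C60 lungs at 3 days, and was not well above background on any control array at 3 days. For the olfactory receptor genes Or8b1b and Or7d9 no bound is given, since a single C60 array at 3 days (array 2) was well above background beside a dim group, which was control at 3 days for Or8b1b and C60 at 1 month for Or7d9. Their fitted values were -5.30 and -4.53, and without C60 array 2 at 3 days they became -3.96 (adjusted p = 0.117) for Or8b1b and -2.06 (adjusted p = 0.167) for Or7d9.

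Among the genes whose C60 effect was called at both times with opposite signs was Zfpm1. It encodes FOG-1, a cofactor of the GATA factors. Zfpm1 read 0.42, 0.43, 0.32 and 0.35 in C60 lungs and -0.01, -0.24, -0.04 and 0.04 in control lungs at 1 month, and -0.44 and -0.73 in C60 lungs against 0.50, 0.12 and 0.32 in control lungs at 3 days. The C60 lungs were higher at 1 month and lower at 3 days, with no overlap at either time. The C60 effect was 0.44 at 1 month (adjusted p = 0.00542) and -0.90 at 3 days (adjusted p = 0.000145), a difference of 1.35 ± 0.15 (adjusted p = 2.13e-05). The unused C60 arrays at 3 days read -0.98 and -1.20. A probe that overlaps the first gave 1.10 (adjusted p = 0.00136), and one farther along the gene gave -0.07 (adjusted p = 0.918). The 3 probes are printed because they disagree.

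Zfpm1, probe used, chr19:52553193-52553252, + strand: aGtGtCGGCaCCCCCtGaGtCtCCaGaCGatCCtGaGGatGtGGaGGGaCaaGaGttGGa
Zfpm1, overlapping probe, chr19:52553239-52553298, + strand: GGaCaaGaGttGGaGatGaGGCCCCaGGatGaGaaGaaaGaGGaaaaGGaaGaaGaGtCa
Zfpm1, distant probe, chr19:52585557-52585616, + strand: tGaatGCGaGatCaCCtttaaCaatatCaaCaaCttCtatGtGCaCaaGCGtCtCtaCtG

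Of the genes called at both times with opposite signs, 21 rises and 54 falls had a symbol and were well above background on all 13 arrays. Beside Zfpm1, the largest rises among them were Tmem8b (2.37), Edn3 (1.72) and Il20rb (1.29), a receptor chain for cytokines of the interleukin-20 group. Il20rb averaged -1.79 in C60 and -2.31 in control lungs at 1 month, and -2.04 in C60 and -1.27 in control lungs at 3 days. The 4 largest falls among them were Ergic2, Or5w22, Rpl13a-ps12 and Ncl-ps1.

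Gene lists placed the named genes among their pathways. Over 38 lists, 810 genes were tested and 92 members were called, 30 to 104 with an array left out and fewest without C60 array 2 at 3 days. Where a list is described, its median is set against the median of all genes, -0.06. Counts of called members are set against the shares of all genes, 4.18% called higher and 6.15% called lower. Over all lists together, 92 of 810 is a share near the 10.3% of all genes called in either direction. In bulk tissue fewer cells of a type and less RNA per cell cannot be told apart.

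Genes that glucocorticoids induce had a higher C60 effect at 1 month in 8 of 20 measured members and a lower one in 0, with a median of 0.85. The called members were Zbtb16, Ddit4, Cebpd, Nfkbia, Cdkn1a, Klf9, Gadd45g and Errfi1. Ddit4, an inhibitor of mTOR signalling, read -0.77, -0.34, -0.81 and -0.43 in C60 lungs and -1.48, -1.60, -0.08 and -0.93 in control lungs at 1 month, and -0.18 and 0.22 in C60 lungs against 2.00, 1.88 and 1.81 in control lungs at 3 days. The 3 control arrays at 3 days were the highest of the 13, and the groups overlapped at 1 month (difference 2.31 ± 0.56, adjusted p = 0.0162). The unused C60 arrays at 3 days read 0.81 and 1.05. Zbtb16, a zinc finger repressor strongly induced by glucocorticoids, averaged -3.15 in C60 and -5.13 in control lungs at 1 month, and -4.77 in C60 and -2.08 in control lungs at 3 days (difference 4.67 ± 1.14, adjusted p = 0.0165). The 2 used C60 arrays at 3 days lay far apart for Zbtb16, at -6.42 and -3.13, and the unused ones read -3.73 and -3.49. Zbtb16 was well above background on 3 of 4 control arrays at 1 month and 1 of 2 C60 arrays at 3 days. A second probe gave 2.03 (limma adjusted p = 0.182). Nfkbia, the inhibitor of NF-kB, and Cebpd, a leucine zipper factor, gave 1.31 and 1.44. In 5 of the 8 the control slide at 3 days carried the difference. At 3 days 7 of the 20 were lower in C60 than in control lungs, against 1.98% of all genes. At 1 month 2 were higher, against 7.27% of all genes, and 2 lower, against 12.4%. Between times, 2 of the 20 were lower at 1 month on the C60 slides, against 9.27% of all genes, and 16 on the control slides, against 18.3%. Without C60 array 1 at 3 days 0 of the 20 were called.

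The circadian clock list had 3 of 18 members called higher, Usp2 (2.32), Tef (1.24) and Bhlhe40 (0.84), and 1 lower, Npas2 (-1.29), with a median of 0.80. Usp2 is a rhythmic deubiquitinase, Tef a rhythmic transcription factor, Bhlhe40 a repressor of the clock and Npas2 a partner of Bmal1. Tef read -1.58, -1.68, -1.58 and -1.82 in C60 lungs and -2.69, -2.83, -3.24 and -2.19 in control lungs at 1 month, and -2.26 and -1.74 in C60 lungs against -1.70, -1.81 and -1.99 in control lungs at 3 days. The control slide at 1 month was the low one. C60 against control at 1 month was called higher for 7 of the 18, against 7.27% of all genes, and lower for 2, against 12.4%. Npas2 was low on the C60 slide at 1 month. The count of 4 calls fell to 1 without any 1 of the 4 C60 arrays at 1 month, without control array 2 at 1 month, without C60 array 2 at 3 days or without control array 1 or 2 at 3 days, to 2 without control array 3 at 3 days and to 0 without C60 array 1 at 3 days. No label states the hour of dissection.

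Heart muscle genes, which are transcribed in the muscle sleeves of the pulmonary veins, were called higher in 7 of 18 members and lower in 0, with a median of 1.00. They were Sln, Mybpc3, Csrp3, Tnni3, Tnnc1, Myl7 and Myl4. Tnni3, cardiac troponin I, read 3.59, 3.53, 3.13 and 3.96 in C60 lungs and 2.98, 3.03, 2.99 and 3.62 in control lungs at 1 month, and 2.64 and 1.18 in C60 lungs against 2.76, 2.99 and 3.14 in control lungs at 3 days. The lowest array was C60 array 2 at 3 days, and the unused C60 arrays read 3.22 and 2.56 (difference 1.45 ± 0.39, adjusted p = 0.0258). A second probe of Sln gave -1.26 (adjusted p = 0.379) against 1.81 for the probe used. The summed linear level of the 18 markers ranged from 162.4 to 233.1 in C60 lungs and 121.7 to 206.2 in control lungs at 1 month, and from 88.1 to 124.9 in C60 lungs and 123.2 to 172.6 in control lungs at 3 days. The number called was 0 without C60 array 2 at 3 days, 2 without control array 3 at 3 days, 3 without control array 2 at 3 days and 4 without control array 2 at 1 month. On the C60 slides 7 of the 18 were higher at 1 month than at 3 days, against 14.4% of all genes. With C60 positions 3 and 4 in place of 1 and 2 there were 2 calls. The part of the heart muscle content in the results of the other lists was not tested.

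Heat shock genes were called higher in 5 of 17 members, with a median of 0.56 and none lower. Hspa8, the constitutive Hsp70 chaperone, read 5.58, 5.66, 5.80 and 6.00 in C60 lungs and 5.35, 5.47, 5.20 and 5.61 in control lungs at 1 month, and 5.20 and 5.27 in C60 lungs against 5.56, 5.94 and 5.98 in control lungs at 3 days. C60 lungs were the lower at 3 days without overlap, and 1 C60 array overlapped the controls at 1 month. Of 3 other Hspa8 probes, 2 were called higher (0.95 and 1.24) and 1 gave -0.33 (adjusted p = 0.504). Hspa1a, the inducible Hsp70, gave 1.96 (adjusted p = 0.0481) and Hspb8 1.18, Dnajb1, a co-chaperone, 0.81 and Hsf1, the heat shock factor, 0.78. Without either of the C60 arrays at 3 days 1 member was called.

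The unfolded protein and amino acid stress list had 5 of 22 members called higher and 0 lower: Atf6 (1.46), Sdf2l1 (1.06), Ddit3 (1.01), Manf (0.80) and Asns (0.55). Atf6 is a sensor of the endoplasmic reticulum, Ddit3 the stress factor CHOP and Asns asparagine synthetase. Without either C60 array at 3 days 2 were called. Among proteasome subunits 6 of 30 were called higher, by 0.39 to 0.74, and Psmd6 lower by -1.69 ± 0.23 (adjusted p = 0.000178). Psmd6, a subunit of the regulatory lid, read 0.75, 0.83, 0.72 and 0.79 in C60 lungs and 1.24, 1.44, 1.04 and 1.14 in control lungs at 1 month, and 0.61 and 0.58 in C60 lungs against -0.82, -0.68 and -0.46 in control lungs at 3 days. The control slide at 3 days was the low one, as in Celsr1. In 5 of the 6 higher subunits the C60 slide at 3 days was the low one. The probes of Psmd7 disagreed, with 0.59 on the probe used, -0.39 (adjusted p = 0.0472) on the second and 0.00 on the third. The count of 7 became 2 without C60 array 1, 3 without C60 array 2 and 3 without control array 3 at 3 days.

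Among fatty acid oxidation genes 0 of 29 were called higher and 4 lower, with a median of 0.05. Beside Acot1 they were Acot2, a mitochondrial acyl-CoA thioesterase (-1.02), Cpt1a, the gate of fatty acid entry into mitochondria (-0.69), and Etfdh, which passes electrons from fatty acid oxidation to ubiquinone (-0.63). Cpt1a read 0.28, 0.28, 0.19 and 0.53 in C60 lungs and 0.15, 0.13, 0.15 and 0.51 in control lungs at 1 month, and 1.32 and 1.57 in C60 lungs against 0.54, 0.71 and 0.77 in control lungs at 3 days. Like Acot1, Cpt1a was high on the C60 slide at 3 days, and its unused arrays read 1.36 and 1.45. Etfdh was low on the control slide at 3 days, and Acot2 was carried by no single slide. The 4 calls became 2 without C60 array 1 at 3 days or control array 1 at 3 days, and 1 without C60 array 2 at 3 days.

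Among coagulation genes 4 of 24 were called higher, among them F2rl3 (1.81), Serpinf2 (1.52) and Plaur (0.99), and 1 lower, F2r. The 2 thrombin receptors F2r and F2rl3 moved in opposite directions. F2r, the receptor PAR1, averaged -4.46 in C60 and -2.94 in control lungs at 1 month and -3.40 in C60 lungs at 3 days, and was not well above background on any control array at 3 days, so its difference was -3.16 or lower (fitted -4.51, adjusted p = 6.46e-08). F2rl3, the receptor PAR4, averaged -4.56 in C60 and -3.44 in control lungs at 1 month, and -4.56 in C60 and -1.64 in control lungs at 3 days. The control slide at 3 days was the low one for F2r and the high one for F2rl3. The 5 calls became 2 without C60 array 1 at 3 days and 3 without each of 9 other arrays, among them all 4 C60 arrays at 1 month.

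Structural and barrier lists came next. Collagen and matrix genes had 5 of 28 called higher, Col8a1 (1.65), Loxl2, a crosslinking enzyme (0.90), Sparc (0.88), Col3a1 (0.86) and Tgfb1 (0.68), a count that became 3 higher and 2 lower after quantile normalization 0 without C60 array 2 at 3 days, and 2 or 3 without each of 8 other arrays. Endothelial markers had Nos3 (1.62), Esam (0.84) and Cldn5 (0.82) called higher and the angiopoietin receptor Tek (-0.79) lower, of 27, and 1 higher and 2 lower after quantile normalization; without either C60 array at 3 days, 1 was called. Genes of cilia had 3 of 18 called higher and the dynein assembly factor Dnaaf1 lower. Dnaaf1 read -1.16, -1.75, -1.18 and -1.60 in C60 lungs and -0.12, 0.68, 0.93 and 0.17 in control lungs at 1 month, and -1.21 and -0.87 in C60 lungs against -0.88, -0.85 and -1.17 in control lungs at 3 days. The control slide at 1 month stood high and the other 3 lay together (difference -1.76 ± 0.36, adjusted p = 0.00568), and a second probe gave 0.40 (adjusted p = 0.314). Without C60 array 1 at 3 days 2 of the 4 cilia genes were called. Alveolar type I markers had 2 of 17 called higher, Vegfa (0.94) and Ager (0.84). Alveolar type II markers had 1 of 22 higher, Napsa (0.51), and 1 lower, Pgc (-1.52), shares near the 4.18% and 6.15% of all genes.

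Among inflammatory lists, macrophage and monocyte markers (21 members), complement (25), MHC class II (11) and B and plasma cell markers (10) had 0 called by limma, and their members with the smallest p were Cybb (-0.57, unadjusted p = 0.0191), C2 (0.72, 0.00538), Ciita (-0.73, 0.00851) and Ms4a1 (-0.91, 0.0246). Chemokines and cytokines had 2 of 32 called higher (6.25%, against 4.18% of all genes), Ccl17 (1.12) and Ccl21 (0.66). Neutrophil markers had 1 of 12 lower, Itgb2 (-1.04), the beta chain of leukocyte integrins, which read 3.51, 3.59, 3.45 and 3.74 in C60 lungs and 3.66, 3.64, 3.55 and 3.54 in control lungs at 1 month, and 3.39 and 3.32 in C60 lungs against 1.95, 2.52 and 2.54 in control lungs at 3 days. The 3 low arrays were again the controls at 3 days. T and NK cell markers had Klrb1a (-0.86) and Cd2 (-0.70) lower of 20, and mast cell markers Mcpt8 (-1.22) and Kit (-0.77) lower of 10. A second probe of Kit gave 0.31 (limma adjusted p = 0.544), the opposite sign without a call. Of 29 antioxidant genes under Nrf2, 1 was called, Gclm, the regulatory subunit of glutamate-cysteine ligase; its probe was well above background only on the control slide at 1 month, so no size is given. Ribosomal proteins had 2 of 45 called higher and the respiratory chain 3 of 41, shares near the 4.18% of all genes or little above it. Metallothioneins and metal genes (17) and red blood cell markers (12) had 0 called, with the smallest unadjusted p for Mtf1 (0.00618) and Ermap (0.0303).

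The remaining lists held 1 to 3 calls each. Hypoxia and glycolysis genes had 3 of 28 called higher, Vegfa, the aldolase Aldoc (0.88) and the isomerase Tpi1 (0.49). Cell cycle genes had 2 of 34 lower, Top2a (-0.60) and Aurka (-0.53), a share near the 6.15% of all genes, and sensory neuropeptide genes 2 of 17 lower, among them Calca (-1.68), with Calca's other probes at 0.53 (adjusted p = 0.607) and -0.59 (adjusted p = 0.313). Immediate early genes had Klf2 (1.51) higher and Zfp36 (-1.74) lower of 27, and matrix metalloproteinases and their inhibitors Mmp23 (1.04) higher and Mmp28 (-3.02) lower of 18. These shares lay near the 4.18% and 6.15% of all genes. A single member was called higher in the lists of smooth muscle (Tagln of 14), club cells (Cyp4b1 of 15), fat cells (Slc2a4 of 13), interferon response (Psmb9 of 28), acute phase (Itih3 of 15), macrophage activation and lysosome (Lamp1 of 28) and sterol synthesis (Pmvk of 23). These 7 shares ran from 3.57% to 7.69%, against 4.18% of all genes. For Itih3 the used C60 arrays at 3 days read -4.9 and -4.4, the unused ones -2.8 and -3.0 and the controls -3.3 to -2.8. Second probes of Tek (-0.27), Vegfa (0.63), Manf (0.58), Dnajb1 (0.77), Top2a (-0.34) and Slc2a4 (0.73) had the same sign and were not called. Without C60 array 2 at 3 days the count became 0 for T and NK cells, mast cells, hypoxia, cell cycle, neuropeptides, metalloproteinases, alveolar type I and type II cells, and 6 of the 7 lists with a single call named last, all but smooth muscle. It became 1 for the respiratory chain and ribosomal proteins. The count of chemokines became 0 without C60 array 1 or 2 or control array 2 at 1 month, C60 array 1 at 3 days or control array 3 at 3 days, and that of neutrophil markers without C60 array 1 at 3 days. Cell cycle genes were also at 0 without C60 array 1 at 1 month, C60 array 1 at 3 days or control array 2 at 3 days.

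**Figure D4:**
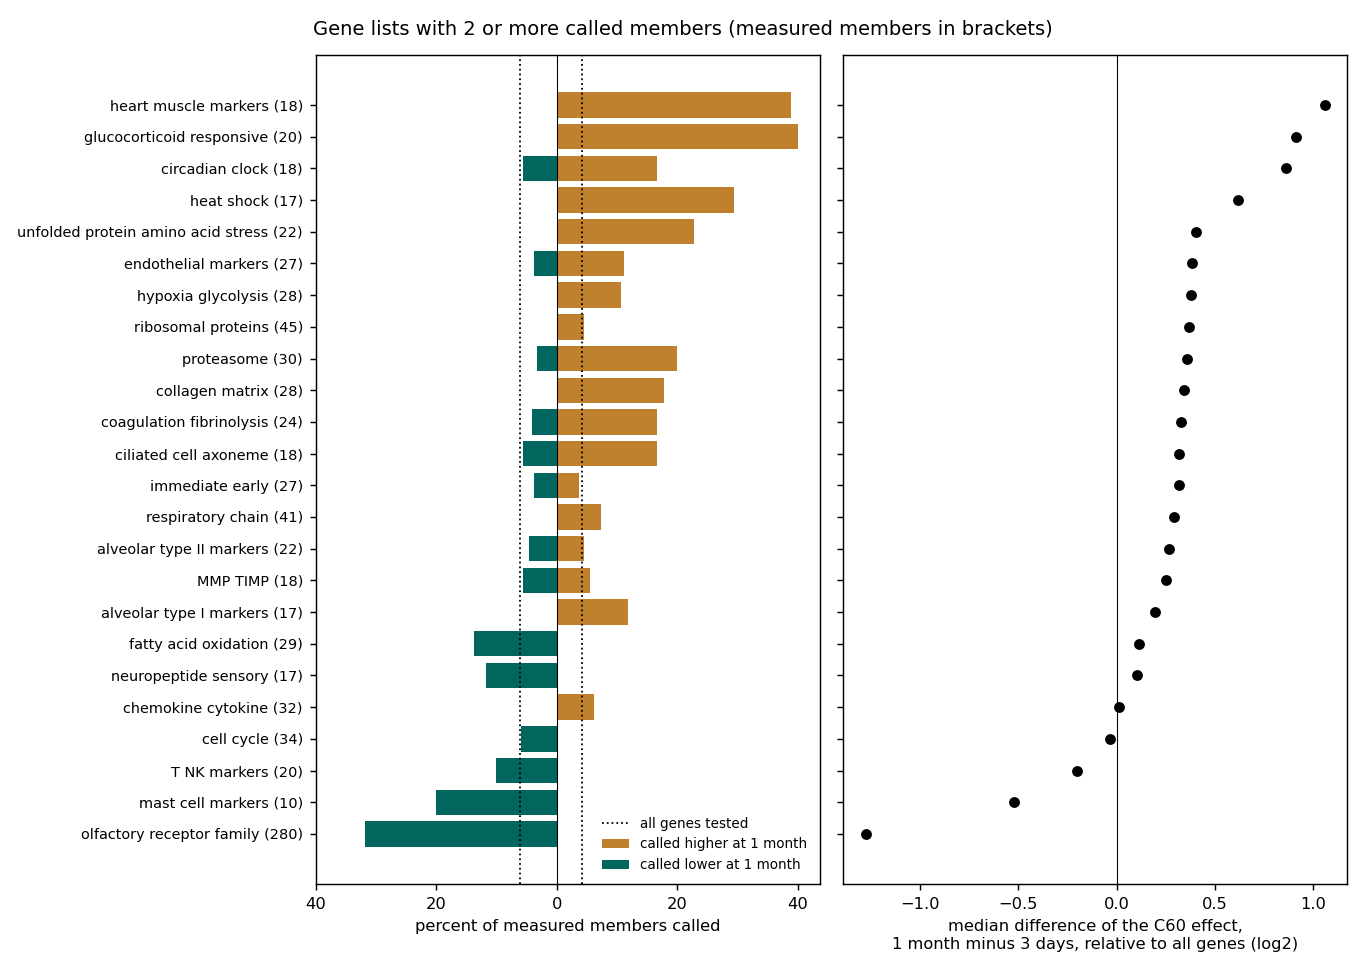
Left, percent of the measured members of each list called higher (right of 0) or lower (left of 0) at 1 month, with dotted lines at the shares of all genes tested, 4.18% and 6.15%; right, the list's median difference minus the median of all genes, in log2 units. Glucocorticoid (8 of 20) and heart muscle (7 of 18) lists have the highest shares called higher, and olfactory receptors (89 of 280) the highest share called lower.

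The called genes shared features of their probes that the rule did not use. Probes of genes called higher held a median of 50% G and C, those of genes called lower 40%, and all probes 43.3%. Among 578 probes under 30% G and C, 0 were called higher and 173 (29.9%) lower. From 35% to 40%, 0.798% were higher and 7.16% lower, and from 55% to 60%, 10.1% were higher and 3.88% lower. At 60% and above the shares were 7.38% higher and 8.03% lower. Of the gene lists, heart muscle (50%), circadian clock (49.2%) and glucocorticoid response (49.2%) had the highest median G and C content, and they were also the 3 with the highest median difference; the part of base composition in their counts was not tested. Across all 24799 genes, which share arrays and are not independent, the difference correlated with the G and C content at r = 0.207 (Spearman 0.292). The C60 change between times correlated at r = -0.035 and the control change at r = -0.239.

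The levels were also set out by array. On probes under 30% G and C and well above background on all 13 arrays (442 probes), the median deviation from the 13-array mean was -0.18 to 0.01 on the C60 arrays and 0.11 to 0.58 on the control arrays at 1 month, and -0.04 and -0.02 on the C60 arrays and -0.44 to -0.19 on the control arrays at 3 days. All 7 control arrays deviated, with opposite signs at the 2 times. The part of base composition in the called differences was not tested.

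**Figure D5:**
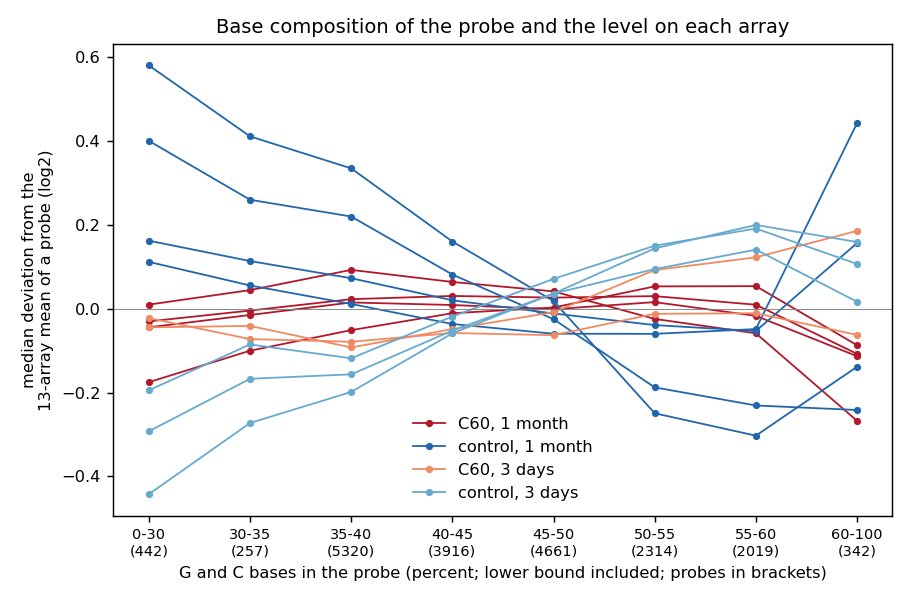
Median deviation of a probe from its 13-array mean, in log2 units, by the percent of G and C in the probe, with 1 line for each array and the number of probes in brackets; only probes well above background on all 13 arrays are used. At the low end the 4 control arrays at 1 month lie at 0.11 to 0.58 and the 3 control arrays at 3 days at -0.44 to -0.19, with the C60 arrays between them.

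Signal level moved with the direction as well. In the dimmest 4960 genes 1.63% were called higher and 9.17% lower, and in the brightest 4960 genes 7.32% higher and 2.38% lower. Of the dimmest 4960, 6.96% were well above background on all 13 arrays, so most met the filter in some groups and not in all. The part of that filter in the direction of their calls was not tested. Genes without a symbol were called lower in 7.69% and higher in 2.43%, and genes with a symbol in 4.80% and 5.73%. Among the 19271 genes well above background on all 13 arrays the counts were 924 higher and 1013 lower.

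Olfactory receptor genes, which encode odour receptors of nasal neurons, were called in 1 direction only. Of 280 measured, 0 were called higher and 89 (31.8%) lower, with a median of -1.34; after quantile normalization 59 and after normexp 26 were called lower, with medians of -0.90 and -0.47. Leaving out an array gave 43 to 121 lower, the fewest without C60 array 2 at 3 days, with 56 without C60 array 1 and 58 without control array 3 at 3 days. Their median level was -4.55, -4.92, -4.54 and -4.56 on the C60 arrays and -4.20, -3.93, -2.82 and -3.32 on the control arrays at 1 month, and -4.58 and -4.17 on the C60 arrays and -4.49, -4.55 and -4.78 on the control arrays at 3 days. Control arrays 3 and 4 at 1 month stood above the rest, and 98.2% to 100% of these probes were well above background on the control arrays at 1 month, against 30% to 85.7% on the 9 others. A probe entered the test where every array of at least 1 group was well above background. Of the 280, 24.6% were so on all 13 arrays. The others entered through some groups and not all, so the high share in control at 1 month can follow from that filter. The part of the filter in the single direction of these calls was not tested. With control arrays 3 and 4 at 1 month left out, an alternative added later, 70 were lower and 1 higher, with a median of -0.81. Pseudogenes by symbol, a set chosen after their values were seen, had 52 of 231 called lower and 7 higher, and those calls are uncertain because near-identical copies exist elsewhere in the genome.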

How the data were processed

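Whole right lung RNA was read on 1-colour arrays, and the 4 groups of the contrast had 4, 4, 2 and 3 arrays. Per the file headers, Feature Extraction 9.5.3.1 with protocol GE1-v5_95_Feb07 and grid build rn4 produced the deposited intensity of each spot, with background already subtracted. The value table deposited by the authors holds a linear ratio per probe and group; how it was made or centred is unknown here (column medians 1.125, 0.997, 1.038 and 1.006 for the 4 groups), and it entered no test. Its C60 column at 3 days matched array positions 1 and 2 (median absolute log2 difference 0.00082 over 20357 probes) and not all 4 (0.109) or positions 3 and 4 (0.219).

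Control spots and spots with an outlier mark were left out, spots of 1 probe were averaged, and log2 processed intensity was scaled to each array's 75th percentile. A probe was kept where every used array of at least 1 group was well above background, which left 28677 of 41012 probes, and the brightest probe stood for a gene (24799 features). Symbols came from accessions, gene identifiers or symbols through a RefSeq gene table of assembly GRCr8, otherwise from the files. Differences were tested with limma 3.58.1 (R 4.3.3; lmFit and eBayes, 15 residual degrees of freedom over 21 arrays, no covariate) with Benjamini-Hochberg adjustment over all features; slide could not be a term, since a slide holds 1 group. Named genes were the 10 largest rises and falls that held without each array, the 4 largest bounds each way, the 4 largest reversals each way and up to 4 called members of each list; further called members are named only to complete a list's count. A few genes that the rule chose are not reported here. The members and lists were chosen with earlier results of these data known. On simulated data, 24 of 100 effects of 1 log2 unit and 74 of 100 of 2 log2 units were recovered for this contrast, with 5 calls among 24599 unchanged genes. The simulated noise was independent between genes and arrays and had 1 spread per gene for all groups. In the data the median SD was 0.267 for control at 1 month and 0.119 for C60 at 3 days. The simulation also held no shift shared by the arrays of a slide, so it does not give the rate of false calls here. The number of arrays, not read depth, limits the precision.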

Additional observations from a re-analysis of the deposited data

Results flagged for a closer look

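With all 13 arrays the C60 effect was called different between the times, by the test of the difference itself, for 2563 genes. Each of the genes given here is among them. The differences in log2 units were Dsg2 3.52, Frem2 2.45, Tmem8b 2.37, Abra 2.05, Lhx3 1.93, Gtpbp1 1.85, Edn3 1.72, Ptp4a3 1.68, Prss16 1.68 and Osr1 1.63 among the rises. Among the falls they were Ergic2 -3.23, Celsr1 -3.13, Or5w22 -2.95, Hspa8-ps5 -2.82, Rpl13a-ps12 -2.73, Ncl-ps1 -2.73, Rps2-ps17 -2.72, Dhx16 -2.68, Cdk11b -2.67 and Acot1 -2.60. Genes with a group not above background had fitted values of 3.39 for Ntm, 3.21 for Spry4, 1.67 for Med22, 3.43 for Rnf151, -6.23 for Set-ps11, -5.30 for Or8b1b and -4.53 for Or7d9, which are not sizes; the report gives bounds for the first 5. The differences of Zfpm1 and Il20rb were 1.35 and 1.29. The calls of Med22, Or8b1b and Or7d9 did not hold in every fit with an array left out. Without C60 array 2 at 3 days the fitted values of Or8b1b and Or7d9 became -3.96 and -2.06.

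In groups of 4 arrays, 14 of 232 groups of values held an array far from the other 3 by Dixon's criterion, and chance gives about 1 in 20. On C60 array 4 at 1 month these were Nos3 (-1.04), Csrp3 (2.63), Hspb8 (-1.23), Ndufs7 (4.77) and Manf (4.32). On the other C60 arrays at 1 month they were Lhx3 on array 3 (-0.98), Klrb1a on array 2 (0.43) and Atp5f1d on array 1 (3.86). On the control arrays at 1 month they were Lhx3 (-2.13) and Cldn5 (4.77) on array 2, Cebpd (5.55) and Kit (-1.31) on array 3, and Cpt1a (0.51) and Tnni3 (3.62) on array 4.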

How the results depend on the processing

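The 2563 calls became 5581 with all 4 C60 arrays at 3 days, 6908 with array weights and 1449 with normexp. After seeing the data, 2 alternatives were added: C60 positions 3 and 4 in place of 1 and 2 (6856), and control arrays 3 and 4 at 1 month left out (4481). Leaving out 1 array gave 1199 to 2932. For C60 against control at 1 month, 4878 calls became 9317 with array weights and 2431 to 5066 with an array left out, moved over 1.5 times by C60 arrays 1, 2 and 3 and control array 2. At 3 days 1225 became 2931 with all 4 arrays, 3194 with weights, 4305 with positions 3 and 4 and 641 to 1393 with an array left out, moved that far by C60 arrays 1 and 2 and control array 1. Control between times gave 9107 to 11272 with an array left out. C60 between times, 5875, became 11277 without the filter on dim probes, 9781 with weights and 2555 to 6309 with an array left out, moved that far by C60 arrays 1 and 2 at 3 days. Called list members, 92, became 197 with all 4 arrays, 201 with weights, 265 with positions 3 and 4, 154 without the 2 control arrays and 30 to 104 with an array left out, moved that far by C60 arrays 1 and 2 and control array 2 at 1 month, and C60 arrays 1 and 2 and control arrays 2 and 3 at 3 days. Genes called with opposite signs, 281, became 544, 933, 810 and 186 with all 4 arrays, weights, positions 3 and 4 and normexp. The cause of these moves was not tested, apart from the smaller or larger number of arrays or probes that each alternative has by construction. With array position as a replicate block 2370 genes were called; no paired analysis was possible because the position on a slide does not pair rats. From the authors' table the log2 ratio of the C60 column at 1 month to the C60 column at 3 days was taken, without a control column. How those columns were centred is unknown, so this may not be the same quantity as the difference of differences. Of the 30 genes chosen by the naming rule, 19 had a value in the authors' table that differed by more than the spread between replicates and 11 one within it, and no sign reversed under any alternative. Under normexp 4 of them (Med22, Rnf151, Or8b1b, Or7d9) missed the threshold, 1 missed it with all 4 C60 arrays, with positions 3 and 4 and with the 4 groups alone, 2 without both control arrays, and 21 of the 30 could be tested when every array had to be well above background. Limits are the 2 C60 arrays at 3 days, slides that hold 1 group each, and dim probes whose differences are bounds.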
